A study of Bos taurus with 6 samples.

Results

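The solute carrier (SLC) genes measured here are the 157 genes of the bovine array whose symbol carries an SLC family and member number, of 9162 named genes in all. The symbol pattern alone matched 165 genes. SLC2A1, SLC2A3, SLC3A2 and every symbol beginning with SLC7A were left out, 8 genes together. Each gene was represented by 1 probe set, the one with the highest mean over all 6 arrays. By SLC number the members fell into 9 families: 23 carriers of ions, 16 of sugars, 9 of nucleosides and nucleotide sugars, 27 mitochondrial carriers (SLC25), 17 of zinc, 4 of other metals, 24 of amino acids and peptides, 18 of monocarboxylates and organic ions and 18 of vitamins, lipids and other solutes. Families go by number and not by substrate or place in the cell, so SLC5A5, the iodide carrier, and SLC5A6, a vitamin carrier, stand with the sugar carriers. For the same reason every SLC25 member is counted as mitochondrial, without a check of where it lies. SLC4A1AP names a binding protein and was put in no family.

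Solute carriers are membrane proteins that move a solute across a membrane, either down its own gradient or coupled to sodium, protons or a counter-solute. They feed the cell, set its pH and volume, load vesicles and connect the cytosol with the mitochondria, lysosomes and the secretory pathway. In endothelium they pass glucose, lactate, adenosine and amino acids between blood and tissue, and zinc and copper carriers supply metal to enzymes made in the secretory pathway.

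Cells were primary aortic endothelial cells of cattle (BAEC), freed with collagenase and grown in RPMI medium. The basal group had 3 cultures without treatment and the TGFB group 3 cultures given 5 ng/ml TGF-beta 1 for 24 hours; genotype, age and animal are not given in the sources used here. The labels speak of triplicates from separate cultures without tying them to animals, so the p-values measure the spread between these arrays, which may be technical. Values are log2 expression on an Affymetrix array, normalised by the authors, and precision is limited by the number of arrays. They carry no detection call.

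Endothelial identity was checked first. Of 12 listed endothelial markers 11 were measured and none had a mean below the 25th percentile of probe set means (4.57 log2). PECAM1 stood between 11.73 and 12.43 and CDH5 between 11.37 and 12.34 in all 6 arrays. VWF was dimmer, between 5.99 and 6.33, as was KDR, between 4.39 and 5.50, with its treated arrays under 4.57. In treated cultures 8 of the 11 were lower, with a list median of -0.52, where 44.4% of all genes were higher. CLDN5 had the largest difference of them, -3.17 (SE 0.41, limma adjusted p = 0.0371). The mean of that list ran from 9.40 to 9.97 in basal and from 9.15 to 9.35 in treated arrays, and that of 7 smooth muscle markers from 6.64 to 6.70 and from 6.91 to 7.06. Adipocyte markers, of which 4 were measured, averaged 6.73 to 6.91 in basal and 6.05 to 6.17 in treated arrays. For leukocyte, erythroid, fibroblast and epithelial or mesothelial markers the list means lay between 4.40 and 6.88. The fibroblast list held bright members, COL1A2 (10.65 to 12.23) and COL3A1 (10.35 to 10.86), beside 3 of 7 below the 25th percentile. The smooth muscle mean moved through TAGLN (2.19), with a list median of 0.09 and 3 of 7 members lower, and the adipocyte mean through FABP4 (-2.43), with ADIPOQ, LEP and CIDEC between -0.15 and -0.05. The part of these values in the results was not tested, and in RNA of whole cultures fewer cells of a type and less RNA per cell cannot be told apart. The arrays did not separate by treatment alone: the first principal component over all genes (64.5% of the variance) placed basal 3 at 22.7, near TGFB1 2 and TGFB1 3 at 27.4 and 28.1, and basal 1 and basal 2 at -47.2 and -27.6, with TGFB1 1 between them at -3.38. In 93 of the 157 solute carriers (59.2%) basal 3 lay closer to the treated mean than to the mean of basal 1 and basal 2, against 67.8% of all genes.

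Few solute carriers passed the test between treated and basal cultures. Of the 157, 2 rose and 1 fell at a limma adjusted p under 0.05 over all genes, a share of 1.91%. Over all genes this share was 1.72%, so carriers were called about as often as other genes. The genes that rose were SLC17A9, which loads ATP into secretory vesicles, by 2.65-fold (95% interval 2.07 to 3.38), and SLC33A1, which carries acetyl-CoA into the endoplasmic reticulum, by 2.55-fold (1.77 to 3.67). SLC17A5, which exports sialic acid from lysosomes, fell by 1.69-fold (1.39 to 2.06). The median log2 difference of the carriers was 0.00 and that of all genes -0.03, and the median size of the difference was 0.14 against 0.19. An unadjusted p under 0.05 was found for 23 carriers (14.6%, against 17.4% of all genes). An adjusted p under 0.1 was found for 7 (4.46%, against 4.73%). In 40 carriers the 3 treated arrays did not overlap the 3 basal arrays, which is 25.5% against 23.3% of all genes. Of these 18 were higher (8.19% of all genes were) and 22 lower (15.1% of all genes). All 8 carriers with at least a 2-fold difference were higher in treated cultures, where over all genes 4.29% reached that size, 222 higher and 171 lower.

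**Figure D1:**
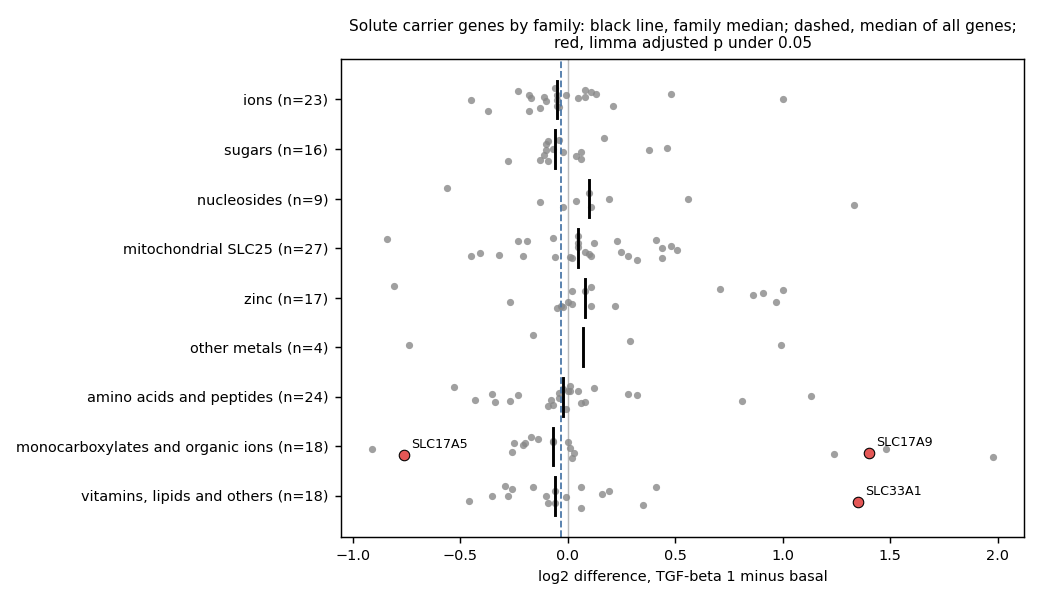
Each point is the log2 difference (TGF-beta 1 minus basal, x axis) of a solute carrier gene, in rows by family; points are spread vertically for legibility only. Family medians (black lines) lie between -0.07 and 0.10, close to the median of all genes (dashed), and the 3 genes called, SLC17A9, SLC33A1 and SLC17A5, are marked in red.

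All 3 calls rested on the full set of arrays. Leaving out any 1 array other than basal 3 ended them, with no carrier called by limma (13 to 19 at an unadjusted p under 0.05). Over all 9162 genes these same fits called 0 to 8 genes, at most 0.0873%, so the loss was not particular to the carriers. Without basal 3, 22 carriers were called (14%, against 16.8% of all genes). With basal 1, basal 2 and TGFB1 1 set against the other arrays as a 2-level block 16 were called (10.2%, against 9.58%). The labels do not give this array split. It was chosen with earlier results known and follows the sides of the first principal component of these same values. Calls under the block are therefore not independent support for a gene. The fit without basal 3 has no term for that array split, which then holds basal 1, basal 2 and TGFB1 1 on one side and TGFB1 2 and TGFB1 3 on the other. Beyond the 3 calls both fits called SLC16A1, SLC16A3, SLC30A1, SLC31A1, SLC31A2 and SLC39A14. The block alone added SLC1A4, SLC1A5, SLC25A25, SLC37A1, SLC39A11, SLC43A1 and SLC44A2. Leaving out basal 3 alone added SLC2A6, SLC4A7, SLC16A13, SLC25A1, SLC25A4, SLC25A6, SLC25A11, SLC25A33, SLC29A1, SLC30A5, SLC38A7, SLC39A1 and SLC39A6.

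Monocarboxylate and organic ion carriers held both SLC17 calls. SLC17A9 (Entrez gene 518062) stood at 6.40, 6.29 and 6.60 log2 in basal 1 to 3 and at 7.68, 8.04 and 7.79 in TGFB1 1 to 3. The groups are more than 1 log2 unit apart, and the difference of 1.40 (SE 0.14, limma adjusted p = 0.0231) ran from 1.30 to 1.49 over 16 alternatives, 10 of which called it, with adjusted p from 0.00404 to 0.169. For SLC17A5 (Entrez gene 530164) basal arrays gave 9.77, 9.90 and 9.65 and treated arrays 8.91, 9.08 and 9.06. Its difference of -0.76 (SE 0.12, limma adjusted p = 0.0441) was called in 9 of 16 alternatives, with adjusted p from 0.0152 to 0.209. Both genes had a single probe set, so the alternatives on the choice of probe set could not change their values.

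Carriers of the SLC16 group move lactate and other monocarboxylates with protons. SLC16A1 (MCT1, Entrez gene 505775) had the largest difference of any solute carrier, 1.98 log2 (95% interval 0.82 to 3.15), and did not pass the test (limma adjusted p = 0.108). Basal 1, 2 and 3 stood at 6.63, 7.05 and 8.44, treated arrays at 8.99, 9.71 and 9.37. The groups did not overlap, yet basal 3 was much nearer to TGFB1 1 than to basal 1, and the basal SD was 0.94. SLC16A3 (MCT4), the lactate exporter of glycolytic cells, read 7.18, 6.86 and 7.84 in basal and 8.61, 8.46 and 8.53 in treated cultures, a difference of 1.24 (SE 0.25, limma adjusted p = 0.0823). Its 2 other probe sets stood at -0.01 and 0.05, so the difference rests on 1 probe set. SLC16A13 went the other way, with 8.88, 8.61 and 8.08 in basal arrays against 7.41, 7.66 and 7.79. Its difference was -0.91 (SE 0.23, limma adjusted p = 0.115), and its other probe sets stood at -0.98 and -0.16. Both SLC16A1 and SLC16A3 were called with the array sets as a block, at 1.63 and 1.12 (limma adjusted p = 0.0173 and 0.0308; over all alternatives 0.00705 to 0.345 and 0.00638 to 0.884).

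SLC18A2, which packs monoamines into vesicles, was marked by a single array. TGFB1 1 read 7.97, whereas TGFB1 2 and TGFB1 3 read 5.63 and 5.78, beside 4.58, 4.63 and 5.74 in basal cultures. The groups overlapped and the difference of 1.48 had an SE of 0.69 (limma adjusted p = 0.344). The 8 organic ion carriers of the SLC22 group were lower in 6 cases and none had groups apart; SLC22A5, the carnitine importer, stood at -0.26 (SE 0.22). Both SLC10 members had groups apart at small differences, -0.20 (SE 0.12) for the bile acid carrier SLC10A1, below the median of probe sets, and -0.21 (SE 0.13) for SLC10A3. The other probe sets of SLC10A1 had the opposite sign, at 0.03, 0.03 and 0.05.

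**Figure D2:**
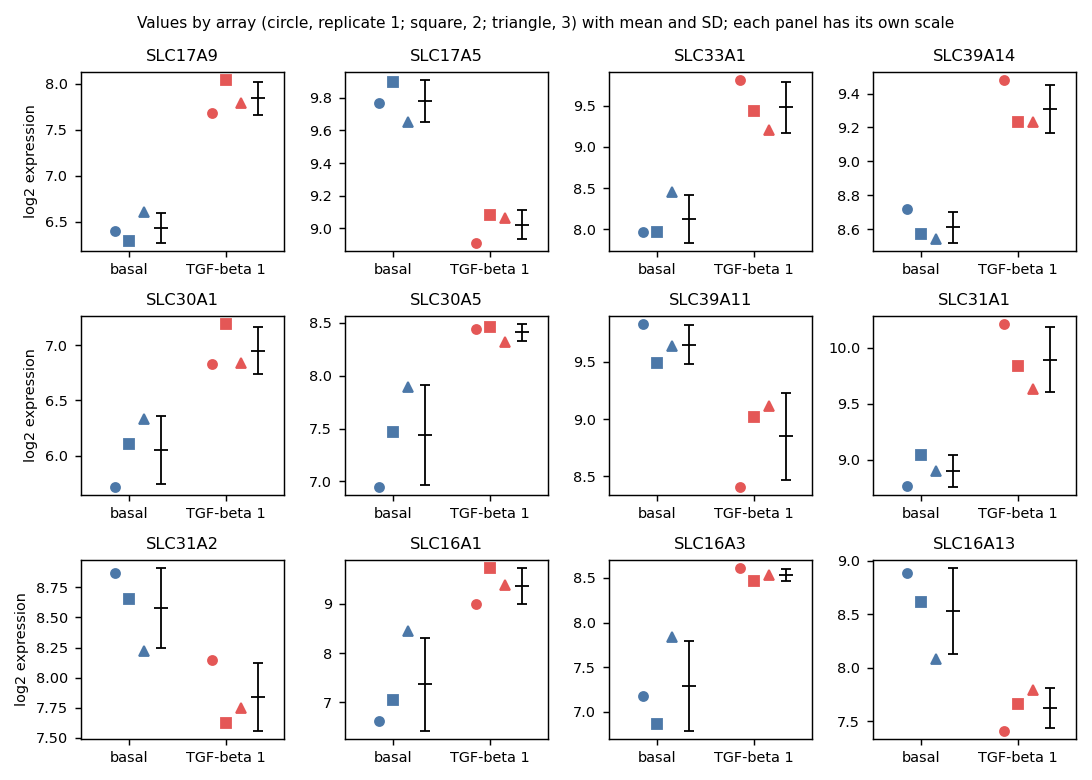
Log2 expression (y axis, own scale in each panel) of 12 solute carriers in the 3 basal and 3 treated arrays, with the mean and SD beside the points. All 12 belong to the 40 of 157 carriers with groups apart, so the separation in every panel follows from the choice of genes. The treated arrays lie to one side of the basal arrays, by a wide gap in SLC17A9 and SLC17A5 and by a narrow one in SLC31A2, where basal 3 (8.22) and TGFB1 1 (8.15) nearly meet.

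Among the carriers of vitamins, lipids and other solutes, SLC33A1 (Entrez gene 517797) was at 7.97, 7.97 and 8.46 in basal and at 9.81, 9.44 and 9.20 in treated arrays. The groups lay well apart, and the difference was 1.35 (SE 0.22, limma adjusted p = 0.0464). Without basal 3 it was 1.52, and the array-set block gave 1.35. Of 16 alternatives 9 called SLC33A1, with adjusted p from 0.0123 to 0.218. It too had 1 probe set, which the alternatives on the choice of probe set could not change. SLC23A2, the sodium-coupled ascorbate carrier, read 5.08, 4.82 and 5.08 against 5.31, 5.46 and 5.25, a difference of 0.35 (SE 0.12, limma adjusted p = 0.23). The fatty acid transport proteins of SLC27 had 5 of 5 members lower, 3 of them with groups apart. Over all genes 44.4% were higher and the rest lower, and 15.1% were lower with groups apart. SLC27A4 stood at -0.35 (SE 0.16) and SLC27A1 at -0.29 (SE 0.14), neither past the test (limma adjusted p = 0.321 and 0.349). SLC44A2, a choline carrier, stood at 0.41 and the folate carrier SLC19A1 at 0.16. Basal 3 (8.43) was the low array for SLC44A2, against 9.29 and 9.06 in the other basal arrays and 9.67, 9.15 and 9.20 in treated ones. Its difference was 0.16 without basal 3 and 0.62 in the array-set block, where it was called (limma adjusted p = 0.0272, with 0.688 the highest under any alternative).

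Zinc carriers come in opposed groups: SLC30 (ZnT) proteins move zinc out of the cytosol, into vesicles or out of the cell, and SLC39 (ZIP) proteins move it into the cytosol. None of the 17 zinc carriers passed the test by limma, 4 had an unadjusted p under 0.05 and 4 (23.5%) had groups apart, 3 of them higher. SLC39A14 (ZIP14), which takes up zinc, iron and manganese, was the closest to a call. Basal arrays gave 8.72, 8.57 and 8.54 and treated arrays 9.48, 9.23 and 9.23. Spread within the groups was small, and the difference was 0.71 (SE 0.12, limma adjusted p = 0.055). It was called in the array-set block (0.76), without basal 3 (0.67) and with probe sets averaged, and its adjusted p ran from 0.0111 to 0.24. It has 1 probe set, so averaging left its values as they were and moved only the adjustment, through other genes. SLC30A1 (ZnT1), the zinc exporter of the plasma membrane, read 5.72, 6.11 and 6.33 in basal and 6.83, 7.19 and 6.84 in treated cultures, a difference of 0.91 (SE 0.19, limma adjusted p = 0.0874).

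SLC30A5 and SLC30A6 together form a zinc transporter of the early secretory pathway. For SLC30A5 the basal arrays spread from 6.95 over 7.47 to 7.89 and the treated arrays gave 8.44, 8.46 and 8.32, with a difference of 0.97 (SE 0.24, limma adjusted p = 0.112). SLC30A6 overlapped between groups, at 5.01, 6.12 and 6.93 against 6.07, 7.34 and 7.22, and its difference of 0.86 had an SE of 0.56. Basal 1 was the lowest array for both. Of the ZIP proteins SLC39A11 was the one lower with groups apart, at 9.83, 9.49 and 9.64 in basal against 8.41, 9.02 and 9.11 in treated arrays, a difference of -0.81 (SE 0.22, limma adjusted p = 0.13). SLC39A6 stood at 1.00 (SE 0.45), but basal 3 (8.69) lay among the treated arrays (8.37, 8.90 and 8.83) and far above basal 1 and basal 2 (6.97 and 7.42). Its other probe set gave 0.96. SLC39A1 stood at -0.27, SLC39A7, which releases zinc from the endoplasmic reticulum, at 0.08, SLC39A9 at 0.11 and SLC39A13 at 0.02. SLC39A8 lay between 3.44 and 4.09 on all arrays, below the 25th percentile. In the list of other genes of zinc and metal handling none of 10 measured genes passed by limma (4 at an unadjusted p under 0.05). ACO1, the iron-responsive aconitase, stood at 0.94 (SE 0.20) and the metallothionein MT1A, which binds zinc and copper, at -0.68 (SE 0.18). The metallothioneins MT2A and MT3 stood at -0.02 (SE 0.25) and 0.03 (SE 0.11).

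The copper carriers SLC31A1 and SLC31A2 had opposite signs. SLC31A1 (CTR1), the copper importer of the plasma membrane, read 8.77, 9.04 and 8.90 in basal and 10.21, 9.84 and 9.63 in treated arrays. It stood 1.99-fold higher (95% interval 1.48 to 2.67), just short of the threshold (limma adjusted p = 0.0573, from 0.013 to 0.225 over its alternatives). SLC31A2 (CTR2), its intracellular relative, gave 8.87, 8.65 and 8.22 against 8.15, 7.62 and 7.75, a difference of -0.74 (SE 0.22, limma adjusted p = 0.161). With the array sets as a block both were called, at 1.07 and -0.57 (limma adjusted p = 0.013 and 0.0284, the latter reaching 0.455 under another alternative). SLC11A2 (DMT1), an iron importer, stood at 0.29 (SE 0.12) at a level below the median of probe sets, and SLC11A1, the phagosomal metal carrier of macrophages, at -0.16 (SE 0.10).

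**Figure D3:**
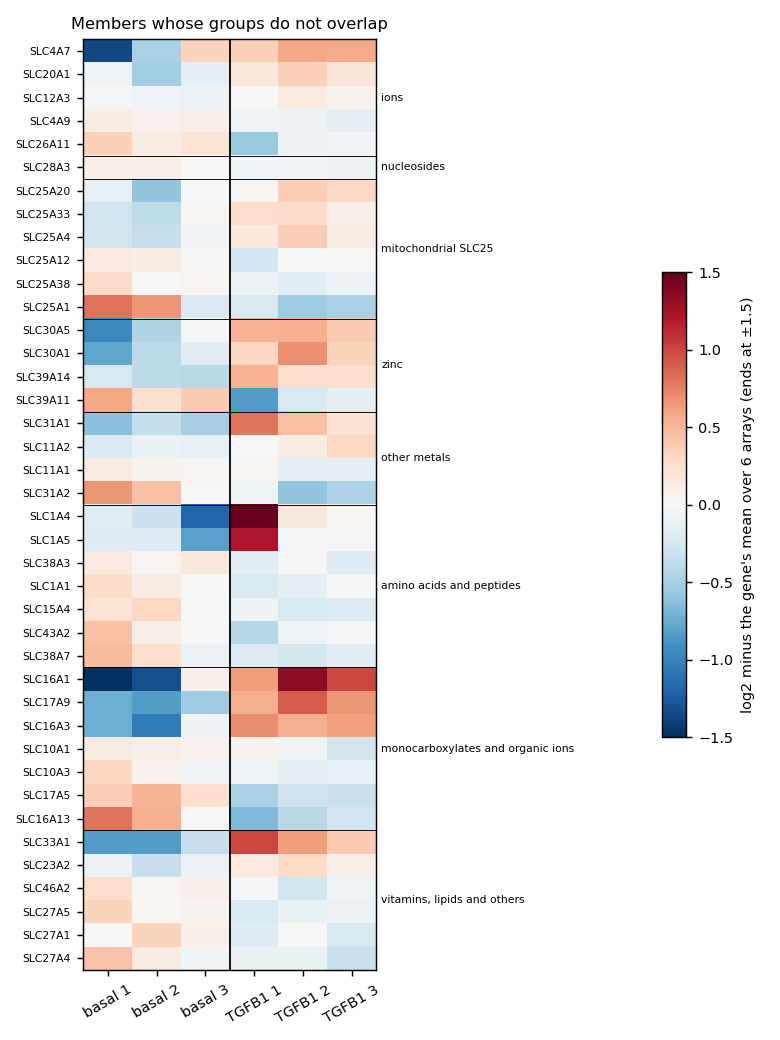
The 40 solute carriers whose treated and basal arrays do not overlap, in rows by family, with colour for the log2 value minus the mean of the gene over 6 arrays; the line separates basal from treated arrays. Basal 3 is paler than basal 1 in many rows, such as SLC16A1 and SLC25A1, and TGFB1 1 is the darkest treated array for SLC1A4, SLC1A5 and SLC33A1.

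Mitochondrial carriers exchange nucleotides, phosphate and carboxylates across the inner membrane. None of the 27 measured SLC25 members passed by limma (4 at an unadjusted p under 0.05). Of them 18 stood higher and 9 lower, with a median of 0.05, and 6 (22.2%) had groups apart. The ADP/ATP carrier SLC25A4 (ANT1) read 8.63, 8.56 and 8.87 in basal against 9.07, 9.27 and 9.04, a difference of 0.44 (SE 0.13, limma adjusted p = 0.161). Its close relatives SLC25A5 and SLC25A6 stood at 0.08 (SE 0.11) and -0.41 (SE 0.22). The value of SLC25A6 depends on the probe set, since its 2 other probe sets stood at 0.59 and 0.94, each with an unadjusted p under 0.05 in the opposite direction. The direction of SLC25A6 is therefore uncertain. SLC25A3, the phosphate carrier, was level at 12.43, 12.38 and 12.35 against 12.36, 12.46 and 12.37.

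SLC25A1, which exports citrate for fatty acid and sterol synthesis, was the lowest of the mitochondrial carriers relative to basal. Basal 1 and basal 2 stood at 10.12 and 9.97, basal 3 at 9.09 and the treated arrays at 9.08, 8.77 and 8.82. Basal 3 thus lay just above the highest treated array, and the difference of -0.84 (SE 0.29, limma adjusted p = 0.209) was -1.16 without it. For the oxoglutarate/malate carrier SLC25A11, at 8.12, 8.34 and 7.62 against 7.64, 7.56 and 7.54, basal 3 lay inside the treated range and the difference was -0.45 (SE 0.20). SLC25A33, a pyrimidine nucleotide carrier, stood at 0.44 (SE 0.14) and its second probe set at 0.52 (SE 0.10), with groups apart in both. SLC25A20, which brings acylcarnitines in for oxidation, stood at 0.48 (SE 0.19), with 0.22 (SE 0.08) from its other probe set. SLC25A12, an aspartate/glutamate carrier, and SLC25A38, a glycine carrier, had groups apart at small differences of -0.19 and -0.23. The other probe sets of SLC25A12 stood at -0.03 and -0.02. SLC25A25, the calcium-regulated ATP-Mg/phosphate carrier, was called with the array sets as a block alone, at 0.64 (limma adjusted p = 0.0284, with 0.782 the highest under any alternative). With all 6 arrays its other probe set stood at 0.01 (SE 0.15).

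Nucleoside carriers take adenosine out of the extracellular space and so end its signal. SLC29A1 (ENT1), the main equilibrative carrier, read 10.15, 9.76 and 9.16 in basal and 9.15, 9.18 and 9.07 in treated cultures. Basal 3 lay within the treated range, and the difference of -0.56 (SE 0.25, limma adjusted p = 0.328) became -0.82 without that array (limma adjusted p = 0.0237, with 0.646 the highest under any alternative). SLC29A2, SLC29A3 and the sodium-coupled SLC28A3 lay below the median of probe sets with differences of 0.04, -0.02 and -0.13. Of 9 other genes of purine and adenosine handling 1 passed, PNP, which splits purine nucleosides and fell by 0.85 log2 (SE 0.14, limma adjusted p = 0.0467), where 1.72% of all genes were called. The list was chosen with earlier results of these data known, so its share of calls cannot be compared with that of all genes. At an unadjusted p under 0.05 the list held 2 higher and 2 lower genes. The adenosine receptor ADORA2B stood at -1.08 (SE 0.26), and ADA and AMPD2, which deaminate adenosine and AMP, stood at 0.92 (SE 0.23) and 0.57 (SE 0.23), none of them past the test.

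The nucleotide sugar carriers SLC35A1 to SLC35A5 supply sugar donors to the Golgi. All 5 stood higher in treated cultures, where 44.4% of all genes did, but none had groups apart. The symbol pattern does not catch the other listed SLC35 genes, and these went both ways. SLC35B1 (0.52), SLC35E3 (0.17) and SLC35F5 (0.71) were higher. SLC35B2 (-0.52), SLC35C1 (-0.30) and SLC35D2 (-0.12) were lower, and none of these genes passed the test. SLC35A3, the UDP-N-acetylglucosamine carrier, read 4.54, 6.11 and 7.11 in basal and 6.71, 7.41 and 7.64 in treated arrays, a difference of 1.33 with an SE of 0.65. SLC35A1, which carries CMP-sialic acid, spread from 6.50 over 7.20 to 8.73 in basal arrays and over 6.98, 7.99 and 8.03 in treated ones. For both genes the spread of the basal arrays exceeded the difference. SLC35A1 had a difference of 0.19 with all arrays, -0.30 in the array-set block and 0.82 without basal 3. SLC35A2, the UDP-galactose carrier, stood at 0.10 (SE 0.11).

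Ion carriers set cell volume, pH and phosphate supply. Of 23 members none passed by limma (2 at an unadjusted p under 0.05), and 5 (21.7%) had groups apart. SLC20A1 (PiT1), a sodium-phosphate carrier, read 10.09, 9.63 and 10.02 in basal and 10.31, 10.51 and 10.34 in treated cultures, a difference of 0.48 (SE 0.15, limma adjusted p = 0.191). Its relative SLC20A2 overlapped, at 9.64, 9.47 and 8.33 against 9.43, 8.64 and 8.66, and went from -0.64 without basal 3 to 0.10 with the array sets as a block. SLC4A7, a sodium bicarbonate importer, stood at 6.27, 7.14 and 7.97 against 7.98, 8.20 and 8.19. Basal 3 was just below the lowest treated array, and the difference was 1.00 (SE 0.41, limma adjusted p = 0.289).

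SLC26A11, an anion exchanger that carries sulfate, gave 7.48, 7.25 and 7.33 in basal against 6.56, 7.05 and 7.09, a difference of -0.45 (SE 0.17). SLC12A2 (NKCC1), which brings in sodium, potassium and chloride, stood at -0.37 (SE 0.17), with -0.30 from its second probe set. Values of SLC12A4 (0.21), SLC4A2 (-0.18), SLC4A4 (0.13) and the sodium/calcium exchanger SLC8A1 (0.05) were within 1 SE of 0 or little beyond it. None of 9 regulators of ion carriers passed by limma (3 at an unadjusted p under 0.05); the kinase SGK1, which raises ion carriers at the membrane, stood at 1.17 (SE 0.26, limma adjusted p = 0.0914).

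With all 6 arrays sugar carriers had neither a call by limma nor a member at an unadjusted p under 0.05, and none of the 16 had groups apart, where 23.3% of all genes did. Their differences ran from -0.28 to 0.46. The 5 SLC2 members left in the rule were slightly lower, where 44.4% of all genes were higher and the rest lower. Among them were SLC2A6 at -0.28 (SE 0.22, and -0.51 and called without basal 3), SLC2A8 at -0.11 (SE 0.10) and SLC2A4, the insulin-responsive glucose carrier, at -0.02 (SE 0.10). The other probe sets of SLC2A2 (0.04) and SLC2A5 (0.02 and 0.09) had the opposite sign. SLC2A4 lay near 5.1 on all arrays, below the median of probe sets, as did SLC5A6, which stood at -0.04. The sugar phosphate carriers SLC37A1 and SLC37A2 stood at 0.46 (SE 0.37) and 0.38 (SE 0.21). TGFB1 1 was the high array for SLC37A1, at 7.51 against 6.27 and 6.41 in the other treated arrays. In the array-set block SLC37A1 stood at 0.76 and was called (limma adjusted p = 0.0243, with 0.895 the highest under any alternative). Among the genes outside the rule SLC2A1 (GLUT1), the main glucose carrier of endothelium, rose by 1.05 log2 (SE 0.16, limma adjusted p = 0.0441), from 8.04, 8.04 and 8.14 to 9.43, 8.94 and 8.98. SLC2A3, also outside the rule, stood at -0.11 (SE 0.18). In all 28 other transport genes were measured, and 2 rose, SLC2A1 and ATP1B1, while SLCO2A1 and SLCO2B1 fell, where 1.72% of all genes were called. That list was chosen with earlier results of these data known, so its calls cannot show that transport genes were called more often.

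Amino acid and peptide carriers left in the rule numbered 24, none of them called by limma (3 at an unadjusted p under 0.05), and 7 (29.2%) had groups apart, 2 higher and 5 lower. The neutral amino acid exchangers SLC1A4 (ASCT1) and SLC1A5 (ASCT2, the glutamine carrier) were the higher ones. SLC1A4 read 7.66, 7.52 and 6.66 in basal against 9.34, 8.02 and 7.87, and SLC1A5 8.05, 8.05 and 7.43 against 9.46, 8.22 and 8.27. In both genes TGFB1 1 was more than 1 log2 unit above the other treated arrays and basal 3 was the lowest array. Differences were 1.13 (SE 0.46) and 0.81 (SE 0.38), and in the array-set block 1.52 and 1.11, both called there (limma adjusted p = 0.00484 and 0.0115, with 0.519 and 0.569 the highest under any alternative). The second probe set of SLC1A4 stood at 0.37 (SE 0.20), with overlapping groups. The leucine carrier SLC43A1 read 7.21, 7.38 and 6.72 against 7.89, 7.17 and 7.10, a difference of 0.28 (SE 0.27), with TGFB1 1 again the highest array and basal 3 the lowest. The array-set block called it at 0.51 (limma adjusted p = 0.0348, with 0.951 the highest under any alternative).

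The lower ones included 2 carriers of the lysosome. SLC15A4, which exports histidine and peptides, stood at -0.34 (SE 0.12) and SLC38A7, which exports glutamine, at -0.43 (SE 0.16), with limma adjusted p = 0.223 and 0.252. SLC38A2 (SNAT2), an abundant sodium-coupled carrier, read 10.84, 11.57 and 11.77 in basal and 11.65, 11.66 and 11.84 in treated arrays, a difference of 0.32 (SE 0.25). The glutamate carrier SLC1A1, the taurine carrier SLC6A6 and the glycine carrier SLC6A9 were below the median of probe sets, at -0.27, -0.08 and 0.05. The 10 SLC6 members had no groups apart; SLC6A8, the creatine carrier, had the largest difference of them, -0.53 (SE 0.34).

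**Figure D4:**
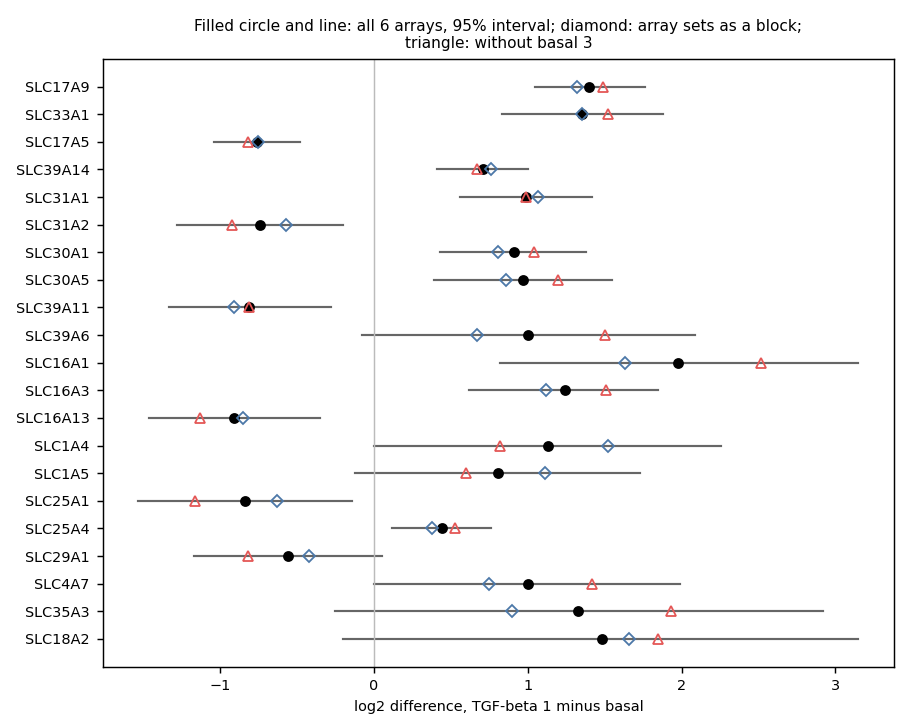
Log2 differences (x axis) of 21 solute carriers with all 6 arrays (filled circle, line for the 95% interval), with the array sets as a block (diamond) and without basal 3 (triangle). For SLC17A9, SLC33A1, SLC17A5, SLC39A14 and SLC31A1 the estimates lie close together, whereas for SLC16A1, SLC39A6, SLC35A3 and SLC4A7 leaving out basal 3 moves them away from 0.

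The differences clustered in the brighter members, as the calls over all genes did. Of the 157 carriers 29 had a mean below the 25th percentile of probe set means. None of these was called by limma, none had an unadjusted p under 0.05, and 1 (3.45%) had groups apart. No share over all genes was taken in that range. Among the 83 carriers above the median (5.92 log2) all 3 calls were found. Of the 158 calls over all genes, 48 higher and 101 lower lay among the 6355 genes above it. Groups were apart in 28 (33.7%) of these carriers, against 27.9% of all genes above the median. The median size of the difference was 0.28 both in these carriers and in all genes above the median. The median SD among basal arrays was 0.17 for solute carriers and 0.22 for all genes, and among treated arrays 0.12 and 0.15. Of the 46 carriers with more than 1 probe set, 25 had the same sign in every one.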

How the data were processed

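Deposited values were log2 expression from 6 arrays. Per the submitters' processing notes the authors used RMA and affy, with versions not given in the sources used here; RMA narrows differences near background. Of 24128 probe sets 112 were controls, left out here, and 0 array columns went unused. Among the other 24016 the array annotation gave 13292 a single gene symbol, 86 several and 10638 none. Solute carrier symbols were the same in RefSeq's table of assembly ARS-UCD2.0. Dim probe sets were kept.

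Treated and basal arrays were tested two-sided in R 4.3.3 using limma 3.58.1 (lmFit, eBayes; 4 residual and 2.14 prior degrees of freedom), adjusting by Benjamini-Hochberg over 9162 genes. Each SE and 95% interval comes from this fit, which was first tested on simulated data. An exact permutation test of 3 arrays against 3 cannot go below p = 0.1. Alternatives covered scaling, the prior, dim genes, the choice of probe set, blocks and left-out arrays.

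Members, families and lists were chosen with earlier results of these data known. Named were carriers that passed, those at 2-fold or more with groups apart, the 3 with the smallest p in each family and a preset list, of which 8 genes were not analysed here. That made 54; 21 more were added after their values were seen, among them SLC16A13, SLC18A2, SLC30A6, SLC35A1, SLC39A6 and SLC39A11, as were ADA, AMPD2, MT2A, MT3 and the marker genes ADIPOQ, LEP and CIDEC from the lists.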

Additional observations from a re-analysis of the deposited data

How the results depend on the processing

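With 3 arrays a group the calls are few and depend on single arrays. Against 3 of 157 solute carrier genes called by limma, an intensity trend in the prior gave 1 call, a threshold of 0.1 gave 7, and 16 were called with the array sets as a block, a grouping chosen with earlier results known. Leaving out 1 array gave 0 to 22 calls (0 to 1538 of all 9162 genes), the highest without basal 3, and 46 to 67 solute carrier genes with groups apart. Groups of 2 and 3 arrays come apart more easily than 3 and 3, so these counts do not compare with the 40 from all arrays. No share over all genes was taken for them. The main fit used no pairing by replicate number. Deviations of same-numbered arrays from their group means correlated at 0.67, -0.51 and 0.70. With 3 arrays a group these deviations sum to 0, so the correlations cannot settle whether replicate numbers pair the arrays. The fit with the replicate block called 0 carriers and 0 of all 9162 genes, with 33 carriers at an unadjusted p under 0.05. Median differences moved for ion carriers (-0.11 above the median of probe set means), other metals (0.13) and monocarboxylates and organic ions (-0.14 above the 25th percentile, -0.19 above the median). Without 1 array the medians ran from -0.01 to 0.09 for nucleosides and from 0.04 to 0.08 for other metals. Of 1255 values of named genes under alternatives, 1198 kept their side of the threshold, 20 lost a call, 37 gained one and 0 turned sign while called. Only the 3 called genes could lose a call, and for all other named genes keeping their side meant staying uncalled. Of 16 alternatives 9 called SLC17A5, 10 called SLC17A9 and 9 called SLC33A1.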
